A study of Drosophila melanogaster with 2 samples.

Results

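Bristle patterning in Drosophila rests on a small set of transcription factors, and 10 of their genes are described here by the peaks of the ETS-domain factor Ets98B at and around them. The members were the 4 genes of the achaete-scute complex (ac, sc, l(1)sc and ase), the Iroquois genes ara and caup, and emc, da, sens and pnr. They were chosen by name, out of 13968 protein-coding genes. The samples were 2 biological replicates of whole pupae aged 2 days, from a fly strain with an insertion that expresses Ets98B fused to eGFP. The fusion protein was immunoprecipitated through GFP, and the bound DNA was sequenced (ChIP-seq). Both replicates carried the fusion, and no sample without it was analysed here. The labels name neither the promoter that drives the fusion nor the cells that hold it, and a whole pupa mixes all tissues. Fewer bound cells and weaker binding per cell therefore cannot be told apart in any value below.

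Bristles begin as single cells, the sensory organ precursors, picked from patches of epidermis that express proneural genes. ac, sc and l(1)sc encode proneural basic helix-loop-helix (bHLH) activators, and ase encodes a relative that acts in the precursors themselves. Their proteins bind DNA as dimers with Daughterless, the broadly expressed partner encoded by da. Extramacrochaetae, from emc, lacks the basic region that touches DNA and holds bHLH proteins in inactive dimers. The GATA factor Pannier (pnr) and the Iroquois homeodomain proteins Araucan (ara) and Caupolican (caup) place ac and sc expression on the thorax. Senseless (sens) is a zinc finger protein that keeps proneural expression high in the precursor.

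Peaks were found at da, which encodes the partner of the proneural proteins, and at emc, which encodes their inhibitor. None of the other members had one in the conservative list. In the conservative peak list, which the authors made from both replicates and thresholded by reproducibility, emc had 6 peaks and da had 2 in the gene or within 5 kb of it. The other 8 members had none. Thus 2 of 10 members had a peak, against 52.8% of all protein-coding genes and 40.4% of genes of every type. The members without a peak were not all separate regions. ac, sc, l(1)sc and ase lay in 1 stretch without a conservative summit, and ara and caup lay together in another. All 8 peaks were matched in both replicates, with a summit of each replicate's ranked list at most 100 bp away. Of all conservative peaks, 89.8% were matched in this way. Under that requirement the share of all genes was 51%. A summit within 500 bp of the gene's own start was found for 2 of 10 members, emc and da, close to the 21.4% of protein-coding genes. Inside the gene itself, 1 member (emc) had a peak, against 15.7% of protein-coding genes. The stretch searched was 10.9 to 25.7 kb long per member (median 14.5 kb), and its median over all protein-coding genes was 12.2 kb.

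The remaining thresholded lists held the same pair of genes. In the second, longer series-level list 2 members had a peak, against 58.1% of protein-coding genes. In the list of replicate 1 alone there were also 2, against 48.4%. The list of replicate 2 alone had 3, with pnr added, against 55.3%.

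Sequences at 3 emc summits are shown because they carry the contrast between the peak at the start of the gene and its strongest peaks away from it. Each is the plus strand of dm6, 5′ to 3′, within 50 bp of the summit. Capitals mark GGAA or GGAT on either strand, the core bound by ETS factors, and CANNTG on either strand, the E-box bound by bHLH dimers. The window at the emc start ends where the transcript begins.

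emc start, chr3L:749335-749399: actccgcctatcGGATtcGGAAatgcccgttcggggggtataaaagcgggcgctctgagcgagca
emc intron, chr3L:751885-751985: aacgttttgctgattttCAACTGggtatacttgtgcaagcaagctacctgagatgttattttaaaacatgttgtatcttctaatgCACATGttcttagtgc
beyond emc, chr3L:756512-756612: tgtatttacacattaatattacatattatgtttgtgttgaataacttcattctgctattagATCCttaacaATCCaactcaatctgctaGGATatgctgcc

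The window at the emc start held 1 GGAT and 1 GGAA, followed by TATAAAA, the TATA box word. The intronic window of emc held neither ETS core but 2 E-boxes. The window beyond emc held GGAT 3 times and no E-box.

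Over the 8 full windows, GGAT occurred in 4 (50%), against 30.9% of all 7157 conservative peaks, and GGAA in 3 (37.5%), against 49.1%. E-boxes occurred in 2 windows (25%), against 35% of all peaks. All of the windows with GGAT, GGAA or an E-box were at emc. CAGCTG and CAGGTG, the E-boxes that dimers of proneural proteins with Daughterless bind, occurred in none of the 8, against 4.12% and 2.26% of all peaks. GATAA, which GATA factors such as Pannier bind, occurred in 1 window, against 19.9% of all peaks, and GAGAG in 2, against 16.6%. TATAAAA occurred in 2 windows, against 7.84% of all peaks. In windows reaching 100 bp to each side, E-boxes occurred in 6 of 8, against 62.3% of all peaks. The order of the E-box shares thus turned with the window. GGAT occurred in 5 of these 8 wider windows (62.5%), against 52.5% of all peaks. GGAA occurred in 6 of them (75%), against 74.4%, so its lower share was not kept. With 8 windows, 1 window is 12.5% of them, and these shares are a description of the sequences and not of bound sites. Median GC content was 33.2% for the 8 and 35.6% for all peaks in the windows of 50 bp to each side. In the wider windows it was 38.8% and 37.8%, so this order turned as well.

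emc (FBgn0000575; dm6 3L, 749400 to 753492, plus strand) was the member with the most peaks. Neighbouring summits among the 6 were 755 to 2550 bp apart. At least 6 peaks were held by 2.48% of protein-coding genes. The density of 4.26 peaks per 10 kb of gene and flanks compared with a median of 0.454 over all protein-coding genes, 99.5% of which had a lower density than emc. The gene lies inside the body of hng3, which runs in the opposite direction, and 5 of the 6 summits were inside hng3 as well.

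The strongest emc peak was in its intron, 2535 bp past the start (3L, 751834 to 752016), with a signal value of 224. It had 132 in replicate 1 and 91.3 in replicate 2, and it was in the thresholded list of each. The signal value is the number that the authors' peak caller gave each peak. Its scale is not stated, and values of the conservative list and of a replicate's list are therefore not compared with each other. The peak at the start of the gene, with its summit 15 bp upstream of it (3L, 749195 to 749574), had a signal value of 181. Here the replicates stood apart, with 43.6 in replicate 1 and 142 in replicate 2.

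The replicate 2 value at the emc start was 3.26 times that of replicate 1, whereas the median of this ratio over all matched peaks was 1.1. A lower ratio was seen in 99.3% of these peaks. The peak 866 bp upstream of the start (signal 118) leaned the same way, with 32.8 in replicate 1 and 78 in replicate 2, a ratio of 2.38. Neither peak was in the thresholded list of replicate 1. The intronic peak leaned the other way, with a ratio of 0.692, below which 8.41% of all matched peaks lay.

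The other 3 emc peaks lay beyond the end of the gene and were nearer to a start of hng3 than to that of emc. They lay 567, 1322 and 3070 bp past the end of emc and 1430, 675 and 1073 bp from that hng3 start. The outermost (3L, 756477 to 756657), shown above, was the strongest of them, at 214 in the conservative list. It had 104 in replicate 1 and 120 in replicate 2. The nearer ones had 131 and 136 in the conservative list. In replicate 1 they had 62.3 and 57.7, and in replicate 2 they had 75.1 and 88.9. All 3 were in the thresholded list of each replicate, so that this side of the gene was less uneven between replicates than its start.

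da (FBgn0267821; dm6 2L, 10388105 to 10393228, plus strand) had 1 peak at its own start and 1 at its neighbours. The summit of the first lay 72 bp upstream of the gene's start (2L, 10387843 to 10388222). Its signal value was 154 in the conservative list, 51 in replicate 1 and 93.3 in replicate 2. The second (2L, 10386291 to 10386670) had 109 in the conservative list, 62.5 in replicate 1 and 51.1 in replicate 2. Its summit lay 1624 bp upstream of da but 181 bp from the start of mRpS7, which encodes a mitochondrial ribosomal protein. It was 219 bp from the start of Cdk1, the mitotic kinase gene, which runs the other way. Both da peaks were in the thresholded list of each replicate. At least 2 peaks were held by 28.9% of protein-coding genes.

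**Figure D1:**
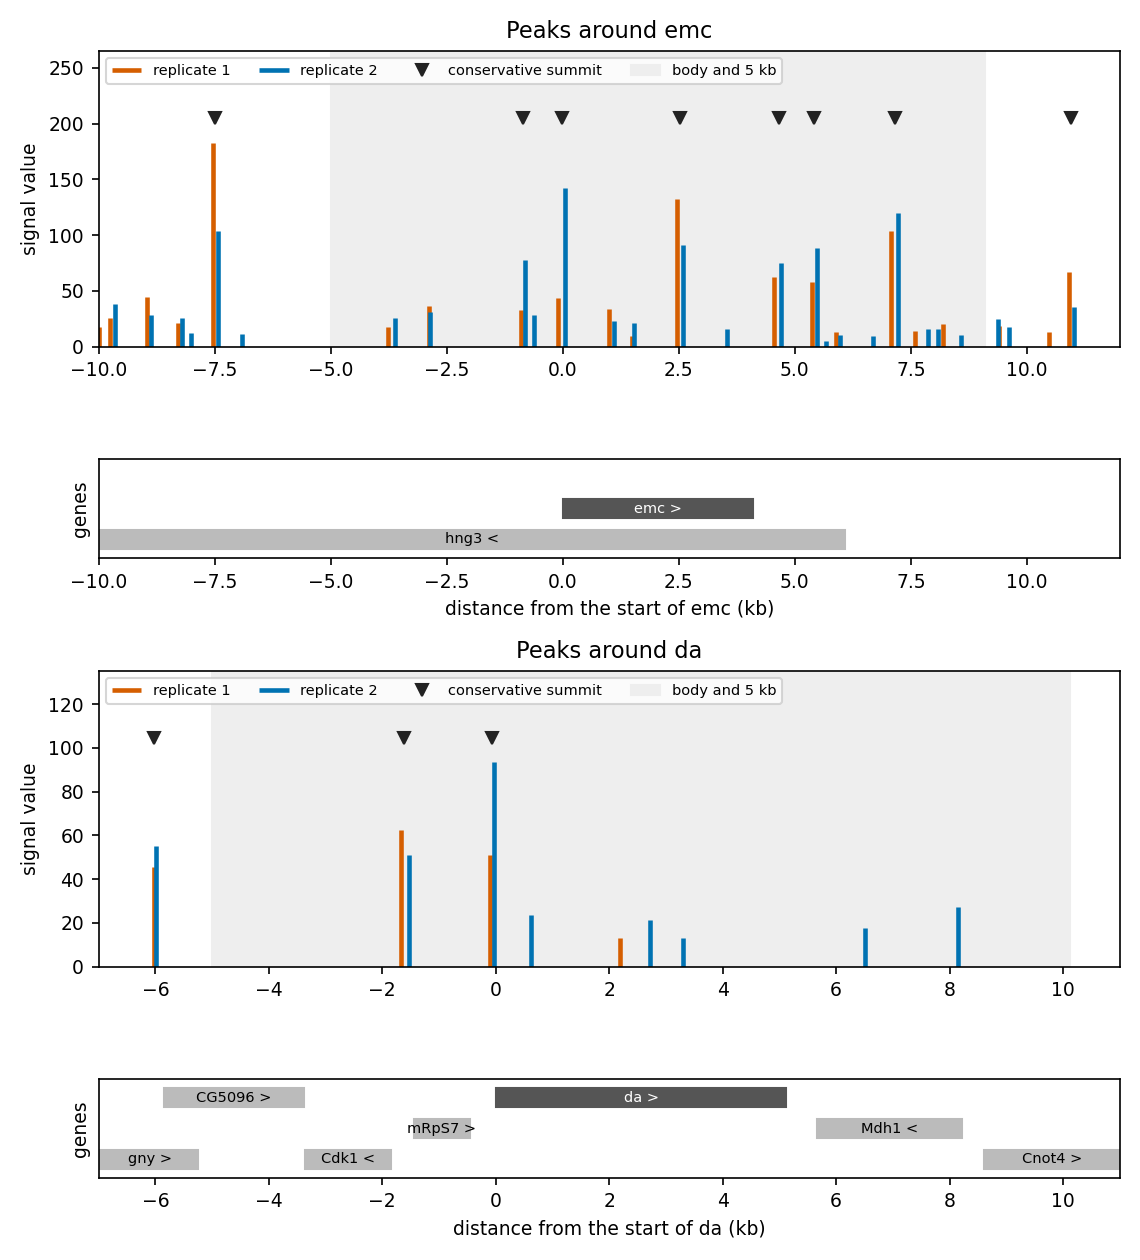
Peaks around emc and da, by distance from the start of each gene in kb. Bars give the signal value of every peak in the ranked list of replicate 1 and of replicate 2 (drawn slightly apart), triangles mark conservative summits, grey shading the gene and 5 kb to each side, and boxes the protein-coding genes with their direction. The tallest bars inside the emc shading were 142 in replicate 2 at the start and 132 in replicate 1 in the intron.

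Of the 8 peaks, 4 therefore had the start of their own member as the nearest start of a protein-coding gene, 3 at emc and 1 at da. By position, 3 summits were within 500 bp of a start, 4 were in introns, 1 was intergenic and 0 were in coding exons. Of the 4 in introns, only the one 2535 bp past the emc start was in an intron of emc. The others lay in introns of hng3, outside emc. The signal values of the 8 peaks were 109 to 224, with a median of 145, against 131 for all conservative peaks. Of the 8, 6 were above the median of all conservative peaks, 1 of them by less than the rounding shows. The peaks at these genes were thus close to the middle of the list in strength. The strongest of them ranked 1589 of 7157.

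**Figure D2:**
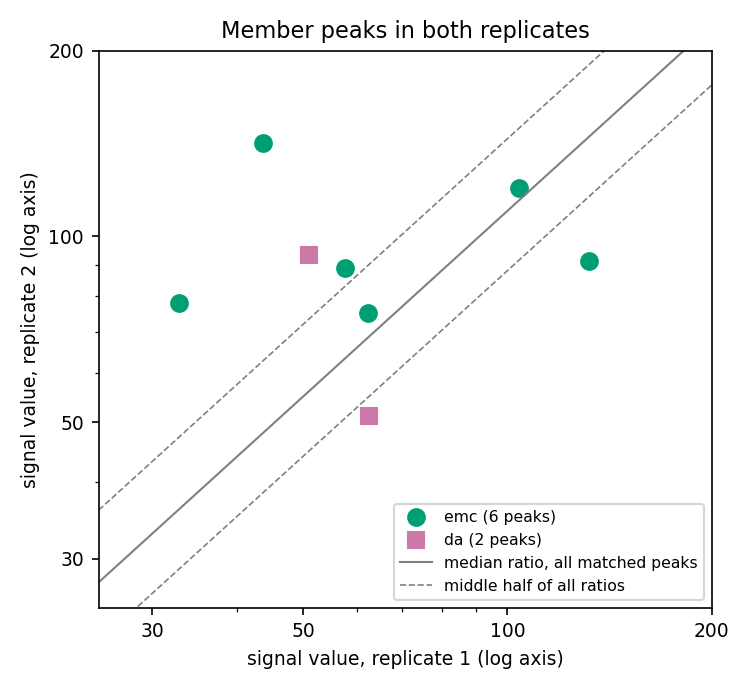
Signal values of the 8 conservative peaks at emc (circles) and da (squares) in replicate 2 against replicate 1, both on log axes. The solid line is the median ratio of 1.1 over all matched conservative peaks and the dashed lines are the quartiles of the ratio, 0.88 and 1.44; the peak at the emc start, with 43.6 in replicate 1 and 142 in replicate 2, lies far above them.

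The proneural genes of the achaete-scute complex had no conservative peak. They also had none in the series-level ranked list used here, which also holds peaks that fail the reproducibility threshold. The 4 genes, ac (dm6 X, 370031 to 370947), sc (396060 to 397497), l(1)sc (409721 to 410817) and ase (460747 to 463176), span 93.1 kb on the plus strand. The nearest conservative summits lay 15737 bp before ac and 13479 bp after ase. The stretch between them was 122.4 kb, against a median distance of 5.54 kb between neighbouring conservative summits. Of such distances 1.82% were as long or longer, and these made up 22% of the sequence between conservative summits. Long stretches also held other members, with 167.9 kb around sens, 79.2 kb around pnr and 75.9 kb around ara and caup. In the ranked list the empty stretch at the achaete-scute complex was 113.3 kb, against a median of 1.16 kb. Of distances in that list, 0.14% were as long or longer. Together these rare long stretches of the ranked list made up 14.8% of the sequence between summits.

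The lists of the single replicates did hold weak peaks in the complex, at different places. Replicate 1 had 10 in the span and replicate 2 had 2, none of them within 100 bp of a summit of the other replicate. Per 10 kb this was 1.07 and 0.215, against 2.6 and 3.45 over the main chromosome arms. The highest signal value in the span was 30.5 in replicate 1 and 15.5 in replicate 2, both between l(1)sc and ase. Within 5 kb, ac had 1 peak of 11.6 in replicate 1, in the flank after the gene, and 1 of 9.74 in replicate 2, in the flank before it. l(1)sc had 1 of 13.3 in replicate 1, and sc and ase had none in either. The medians of the replicates' thresholded lists were 71.1 and 69.6 in replicates 1 and 2, so all of these values were far below the usual strength of a thresholded peak.

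**Figure D3:**
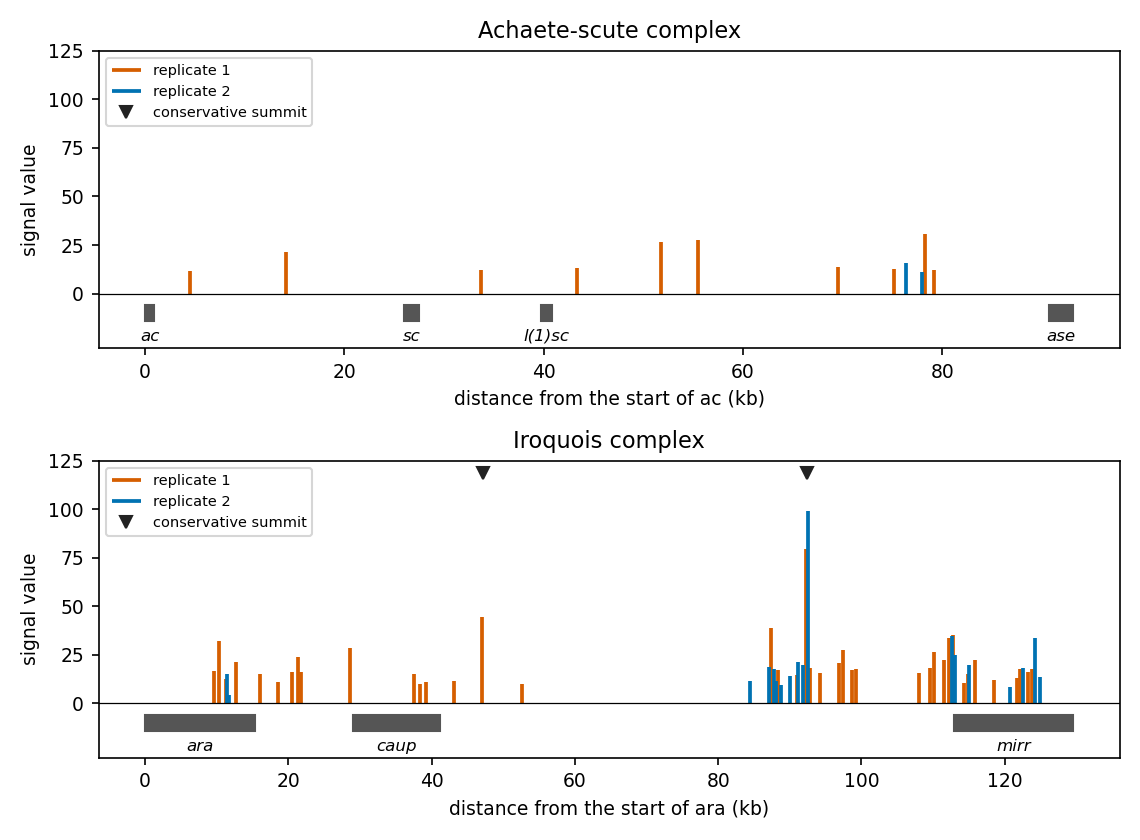
Peaks along the achaete-scute complex (top) and the Iroquois complex (bottom), by distance in kb from the start of ac or ara. Bars give the signal value of each peak in the ranked list of each replicate, triangles the conservative summits, and boxes the genes named; no bar in the achaete-scute complex exceeded 30.5, and the tallest in the Iroquois complex was 98.9 in replicate 2.

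The Iroquois members ara (dm6 3L, 12580672 to 12596018) and caup (12609631 to 12621798) also had no conservative peak. In the ranked list ara had 2 peaks, with signal values of 29.7 and 29, in its introns, 11324 and 12839 bp past the start. Each was matched in a single replicate, the first with 14.9 in replicate 2 and the second with 21.4 in replicate 1. caup had no peak in the ranked list and none in that of replicate 2. Replicate 1 had 5 at caup, the strongest being 28.7 at 152 bp upstream of the start.

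The Iroquois complex was not empty, but its conservative peaks lay between the genes. The complex spans 129.6 kb from ara to mirr, the Iroquois gene that is not a member, and held 2 conservative peaks. That was 0.154 per 10 kb, against 0.52 over the main chromosome arms. The first (3L, 12627649 to 12628028; signal 145) fell just outside the 5 kb limit of caup, 6041 bp past its end and 95 bp from the start of the non-coding RNA gene lncRNA:CR32111. It had 44.4 in replicate 1, but the nearest summit in the ranked list of replicate 2 lay 35596 bp away. The second (3L, 12673017 to 12673151; signal 184) lay 20542 bp before mirr, with 79.7 in replicate 1 and 98.9 in replicate 2, and was in both thresholded lists. It was the strongest peak of the complex in either replicate. The first was in neither replicate's thresholded list. Replicate 2 alone had a further thresholded peak (3L, 12692977 to 12693346; signal 34.8), with its summit 477 bp from the start of mirr.

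pnr and sens had peaks that failed the threshold. pnr (dm6 3R, 16026079 to 16041796) had 4 in the ranked list, all beyond its end. The strongest (3R, 16042786 to 16043165) had a signal value of 62.9 there, 35.8 in replicate 1 and 29 in replicate 2. Its reproducibility score was 722, and every conservative peak had at least 830. Its nearest start was that of Jhbp4, at 522 bp. At the start of pnr, replicate 1 alone listed a peak, 0.063 kb past it, with a signal value of 25. That peak was not in the thresholded list of replicate 1. Replicate 2 alone had a thresholded peak at pnr, at 3R, 16041645 to 16042014, with a signal value of 37.7 and its summit just past the end of the gene. sens (dm6 3L, 13396228 to 13401125, minus strand) had 2 ranked peaks, both upstream of its start. The stronger, 2473 bp upstream, had 47.9 and a score of 162. The strongest peaks of the replicates' own lists in this region lay 2305 bp upstream in replicate 1 (22.9) and 2602 bp upstream in replicate 2 (41.5). Both summits were more than 100 bp from that ranked summit, which a weaker peak of replicate 1 (11.6) matched.

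**Figure D4:**
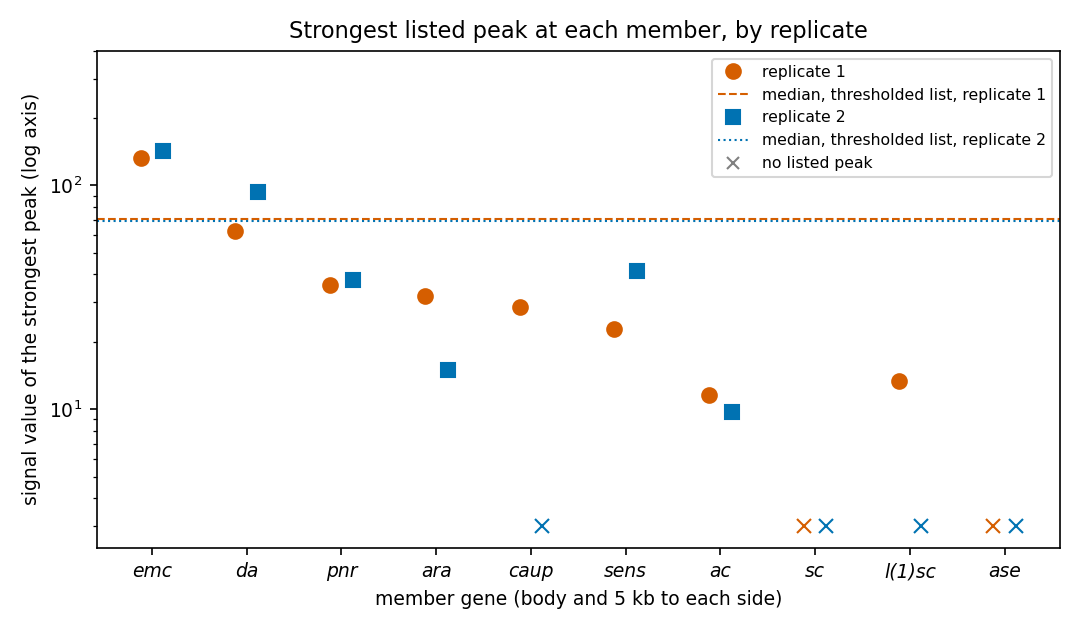
Signal value (log axis) of the strongest peak in the ranked list of replicate 1 (circles) and replicate 2 (squares) in each member gene or within 5 kb of it, with crosses where a list holds no peak. Where a gene has a circle and a square, they stand for different peaks. Dashed and dotted lines are the medians of the thresholded lists, 71.1 and 69.6; emc lies above them in both replicates, da in replicate 2, and the other members in neither.

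In order of their strongest peak, the members began with emc, with 132 and 142 in replicates 1 and 2. These were different peaks, 132 in the intron and 142 at the start. Next came da with 62.5, at mRpS7 and Cdk1, and 93.3, at its own start, and then pnr with 35.8 and 37.7. In every member with a value in both replicates, the values belonged to different peaks, so a pair does not show agreement at 1 site. sens had 22.9 and 41.5 and ara had 32.2 and 14.9. pnr, sens and ara did not keep 1 order, since sens was the lowest of them in replicate 1 and the highest in replicate 2. caup had 28.7 in replicate 1, between ara and sens, and no peak in replicate 2. l(1)sc and ac were lowest in replicate 1 and ac in replicate 2, and sc and ase had no value. In all, 5 of 10 members had a peak in the series-level ranked list, against 79.3% of protein-coding genes. In the ranked lists of single replicates the counts were 8 in replicate 1 and 6 in replicate 2, against 88% and 81.7% of protein-coding genes.

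**Figure D5:**
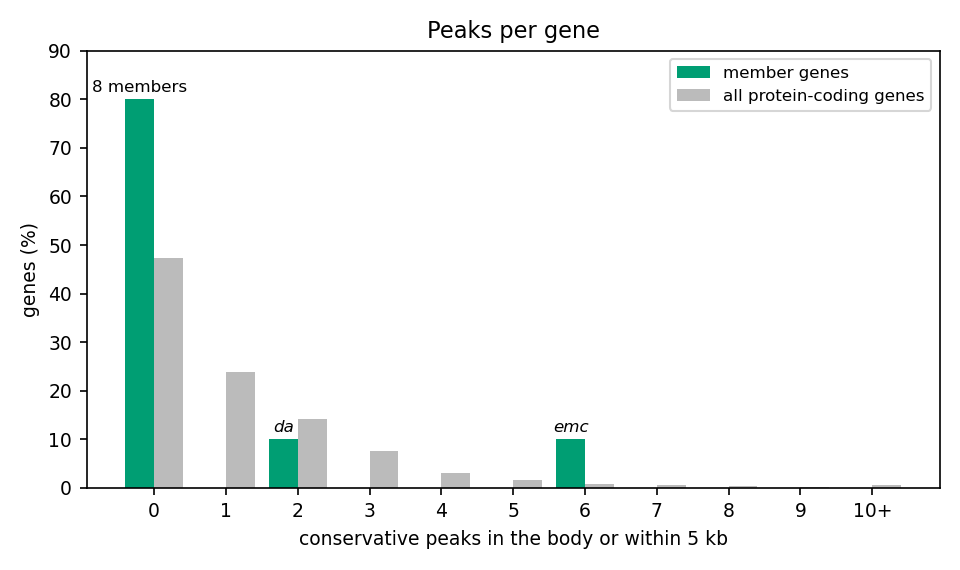
Share of genes (%) by number of conservative peaks in the gene or within 5 kb, for the 10 member genes (green) and for all 13968 protein-coding genes (grey). At 0 peaks stand 8 members and 47.2% of all genes, da stands at 2 peaks and emc at 6, where 0.838% of all genes stand.

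Other genes of a proneural and bristle pathway list had peaks within 5 kb at about the rate of all genes. Of the 38 genes on this list, not all of them bristle genes, 21 had a conservative peak by that rule (55.3%). The share of all protein-coding genes was 52.8%. With the gene body alone 11 of 38 had one, against 15.7% of all protein-coding genes. None of the 4 genes grouped in the list as other proneural bHLH genes (ato, amos, cato and tap) had one within 5 kb. The same held for ac, sc, l(1)sc and ase. Of 7 prepattern genes and Pannier cofactors 3 had a peak. The strongest were at tup, an Islet homeodomain gene, with 580 (271 in replicate 1 and 301 in replicate 2), and at ush, the Friend-of-GATA partner of Pannier, with 239 (69.8 and 187). The tup peak lay 23457 bp from the nearest annotated start of tup and was nearest to that of CG10602.

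Of 18 genes of lateral inhibition and of the precursor, 13 had a peak (72.2%), against 52.8% of all protein-coding genes. The strongest lay 1716 bp from the nearest annotated start of neur, which encodes the ubiquitin ligase that activates Notch ligands, with 1126 (552 in replicate 1 and 558 in replicate 2). gro, the Groucho corepressor gene, came after it with a peak 132 bp from its start, at 815 (428 and 387), and the neighbours E(spl)m7-HLH and E(spl)m8-HLH were counted by the same peak. Brd and Ocho were likewise counted by 1 shared peak of 34.9, nearest to CG3349, with 40.9 in replicate 1 and no match in replicate 2. The 13 genes are therefore not 13 separate regions. Of 9 genes of the sensory organ lineage 5 had a peak (55.6%). They were led by ct, the Cut homeodomain gene of external sense organs, with 542 (238 and 281). pros, which encodes the homeodomain factor Prospero, followed with 363 (194 and 158), 37182 bp from its nearest annotated start and nearest to Irbp. The strongest peak per gene with a peak had a median signal value of 310 in the list, against 182 over the 7371 protein-coding genes with a peak. The stretch searched was longer in the list, with a median of 16.4 kb, and the difference was not tested.

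Further peaks lay just outside the 5 kb limit of emc. They were at 7493 bp before the gene (signal 287; 183 in replicate 1 and 104 in replicate 2), and at 6863 bp (97.5; 66.9 and 35.7) and 9042 bp (609; 323 and 284) past it. The last was stronger than any peak within the limit. In the same order, a start of hng3 was the nearest protein-coding start, at 2558, 4866 and 7045 bp. The peak before emc also lay inside hng3. da had 1 more peak 6022 bp upstream (95.8; 45.7 and 55.1), which lay 180 bp from the start of CG5096.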

How the data were processed

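Ets98B-eGFP was profiled by ChIP-seq in 2 replicates, with fragments of 200 to 800 bp, per the labels' protocols. The authors deposited peak lists on dm6, per the file lists. Each replicate's lists were made from its own alignment, and the series-level lists from both alignments. The aligner and the peak caller are not named in these sources. The deposited signal value is the caller's value per peak, the deposited score a scaled reproducibility score (IDR) of at most 1000, and the deposited −log10 column the q-value. In the series-level ranked lists, 16 columns that repeat values from the lists compared were left out. Of these lists, the one that holds every conservative peak was used, and peaks of the other at the members are not described. Read depth is unknown, so no interval was made.

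Summits (start plus offset) were assigned to Ensembl release 115 genes (BDGP 6.54) on the 7 main arms when inside the gene or within 5 kb. The arms' lengths in the Release 6 FASTA held every peak and gene. A replicate value is that of the ranked-list summit nearest within 100 bp. Positions count from 1. Ensembl lists h and Dl of the gene list as hry and Delta. Peaks are named by a rule: the strongest at each member in full, and in each group of the list the 2 genes with the highest signal. The weaker emc and da peaks, those beyond 5 kb and the CG5096, lncRNA:CR32111 and Jhbp4 peaks were given singly after their values were seen. There is 1 group, so no test between groups was possible, and members are set beside all protein-coding genes with no test. Counting was tested on simulated data and gave the same 7371 genes in bedtools 2.31.1. Python 3.11.15 and pandas 2.3.3 were used. The members and lists were chosen with earlier results of these data known. The sequence at 1 peak is not reported here.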

Additional observations from a re-analysis of the deposited data

How the results depend on the processing

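emc and da had a peak in the other series-level list (8 peaks), in both replicates' own thresholded lists, among the peaks of at least median signal (2 members, against 36.7% of protein-coding genes), with a reach of 2 kb (2, against 38.5%) and by any overlap of the peak (2, against 53.4%). With the gene body alone, 1 member (emc) and 1 peak were left. The median signal percentile of member peaks was then 77.8 in place of 56.7. Of the 38 genes of the proneural and bristle list, 11 had a peak in place of 21. The share of all genes was 15.7% in place of 52.8%. A reach of 10 kb gave 13 peaks and added caup (3 members, against 67.5%). Leaving out either replicate gave 2 to 3 members with a peak (pnr was added in replicate 2 alone), 6 to 11 peaks, a median percentile of 39.9 to 57.8, where 39.9 was that of replicate 1 alone, and 19 to 20 list genes. Without replicate 2 the Iroquois span held 1 peak in place of 2. Without replicate 1 it held 2, of which 1, at the mirr start, is not in the conservative list. The achaete-scute span held 0 in every thresholded list. The alternative lists for the spans were chosen after seeing the data. In thresholded lists 6 of the 8 peaks were matched in both replicates, against 59.7% of all conservative peaks. In ranked lists 8 were matched under each rule of distance or overlap. Windows of 100 bp to each side held E-boxes in 6 of 8 peaks (all peaks 62.3%), CAGCTG in 1 (9.47%), CAGGTG in 1 (5.2%), GGAA in 6 (74.4%), GATAA in 2 (34.2%) and GAGAG in 4 (31.6%). Over genes of every type, 40.4% had a conservative peak. No paired analysis was possible because the labels give 1 group. Depth per replicate is unknown, so a gene with no listed peak cannot be told from binding too weak to be called.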
